A study of Mus musculus with 63 samples.

Results

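Cytosolic ribosomal protein genes encode the proteins of the ribosome's small subunit (symbols starting Rps) and large subunit (Rpl and Rplp). The 83 genes described here were taken from the 23078 genes of one expression table, chosen by the pattern of their symbols and by their level, 10 or more TPM (each library's transcripts scaled to 1000000, per length) in 3 or more of the 63 libraries. The pattern matched 86 symbols, and the 3 left out were the paralogs Rpl39l, Rpl3l and Rpl10l, whose highest levels in any library were 0.867, 0.281 and 0.245 TPM. Among the 83, 82 reached 10 TPM in all 63 libraries. Rpl24 lay just inside the rule, with 10 TPM or more in 47 libraries and a range of 5.48 to 17.6 TPM. No other measured value entered the rule, but the members were chosen with earlier results of these data known. Of the members, 34 belonged to the small and 49 to the large subunit.

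Ribosomal proteins assemble with ribosomal RNA in the nucleolus, and a cell's stock of ribosomes sets how much protein it can make. Their mRNAs typically begin with a C followed by an unbroken stretch of pyrimidines, the 5′ terminal oligopyrimidine (TOP) motif, through which the growth kinase mTORC1 controls their translation as a group. In the developing cortex, neural stem cells divide and give rise to basal progenitors, which produce neurons, and the demand for ribosomes has been studied as cells move from growth and division to differentiation.

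RNA was sequenced in bulk from cells sorted for GFP out of the dorsal cerebral cortex of mouse embryos on a C57Bl/6 background. Every library, with no wild-type group among them, came from a Ski knock-out. Neural stem cells carried Hes5::GFP and made up 8 groups from E11.5 to E18.5 of 3, 4, 3, 4, 3, 3, 3 and 3 libraries. Basal progenitors carried Tbr2::GFP and made up 7 groups from E12.5 to E18.5 of 2, 3, 6, 3, 3, 4 and 3 libraries. Newborn neurons also carried Tbr2::GFP and made up 4 groups from E15.5 to E18.5 of 3, 3, 4 and 3 libraries. How newborn neurons were set apart from basal progenitors of the same reporter is not stated in the labels. They also do not say whether replicates were separate embryos or litters, so that p-values measure the spread between these libraries, which may be technical.

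The values are TPM, which keep no record of sequencing depth, so the precision of single values cannot be derived from counts. Transcripts of Ski, the knocked-out gene, were listed at 17.2 to 53.1 TPM, and with no wild type and no allele structure in the labels this level checks nothing. All 63 libraries are labelled female, yet 4 Y-linked genes summed to 1 TPM or more in 47 libraries, Xist reached 1 TPM in 41, and 25 held both. The 7 markers fixed for neural stem cells summed to mean levels of 1358 to 5478 TPM in the stem cell groups and to at most 845 TPM in the other groups. The 6 basal progenitor markers summed to 1161 to 1585 TPM in basal progenitors and 106 to 234 TPM in newborn neurons, but also to 1151 TPM in stem cells of E14.5. The 7 neuron markers summed to 7331 to 8024 TPM in newborn neurons and to 3965 to 5612 TPM in basal progenitors. In stem cells they stood at 1562 TPM at E11.5, 5719 TPM at E16.5 and 2788 TPM at E18.5, so the stem cell libraries hold neuronal transcripts in amounts that differ between days. In bulk samples, a change in the makeup of the sorted cells and a change in RNA per cell cannot be told apart.

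Start-site sequences are shown for 8 members, because the TOP motif is the feature these genes are known to share. Rpl7a and Rpl14 are shown for their long pyrimidine runs, of 17 and 14 bases, and the other 6 because they are described among the results. RefSeq promoters of build GRCm38.p6 were found for 60 of the 83 members. Each line gives 30 bases, 5′ to 3′, from 10 before to 20 from the listed start. Capitals mark the longest unbroken run of C and T.

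Rpl7a (chr2:26910797-26910826, plus strand): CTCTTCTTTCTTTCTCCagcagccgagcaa
Rpl14 (chr9:120571507-120571536, plus strand): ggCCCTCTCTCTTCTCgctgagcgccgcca
Rps18 (chr17:33955646-33955675, minus strand): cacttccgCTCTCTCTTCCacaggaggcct
Rps12 (chr10:23787190-23787219, minus strand): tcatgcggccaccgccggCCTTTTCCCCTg
Rpl22l1 (chr3:28805498-28805527, plus strand): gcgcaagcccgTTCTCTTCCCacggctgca
Rps24 (chr14:24490668-24490697, plus strand): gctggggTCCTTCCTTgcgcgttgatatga
Rps2 (chr17:24720053-24720082, plus strand): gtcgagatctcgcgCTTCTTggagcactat
Rplp0 (chr5:115559457-115559486, plus strand): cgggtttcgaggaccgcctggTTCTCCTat

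A run of at least 8 pyrimidines lay in this window for 21 of the 60 members (35.0%) and for 11.2% of all 27025 promoters. The longest was 20 bases, in Rpl27a, while Rps2 and Rplp0 had runs of 6 and 7. The letters CCGGAAG, searched on both strands of the 300 bases from 250 before to 50 from the start, occurred in 23 members (38.3%) and in 9.12% of all promoters. AAGATGGC occurred in 5 members (8.33%) against 2.88%, and TATAAA in 6 (10%) against 14.2%. These are letter matches around listed starts, which can lie some bases from the first base of the mRNA. Run length did not sort the members by their course in stem cells. The median change described below was -0.56 on the log2 scale for the 21 with the longer run and -0.61 for the other 39. CCGGAAG, AAGATGGC and TATAAA were not compared with that course.

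By abundance, the members ranged from Rplp0, the scaffold of the ribosomal stalk, with a mean of 2059 TPM over the 19 group means, down to Rpl24 at 12.01 TPM. Rpl7 (1916 TPM), Rps24 (1770 TPM), Rpl32 (1730 TPM) and Rps9 (1692 TPM) followed Rplp0. At the low end, Rps4y2 (35.3 TPM), Rpl7l1 (78.6 TPM), Rps27l (149 TPM) and Rps20 (183 TPM) stood above Rpl24, and the first 3 of these are paralogs of more abundant genes. A separate row of the table carries the upper-case symbol RPL24, which the pattern did not match, at 462 to 1255 TPM. Level and course of Rpl24 therefore cannot be read as those of the protein. Reads can also be split among copies elsewhere: a median of 6.86% of the 31-base windows of a member's transcripts occurred in another gene of the table, and 7 members shared over 50% (Rpl23a, Rpl35, Rpl36, Rplp1, Rps3a1, Rps3a2 and Rps3a3).

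Summed over the 83 members, ribosomal protein transcripts took between 5.23% and 11.5% of all TPM of a library. Neural stem cells of E11.5 stood highest, at 11.2% ± 0.44 (SD, n = 3). The share was 9.19% ± 1.56 (n = 4) at E12.5 and 9.11% ± 0.45 (n = 3) at E13.5. Between E14.5 and E16.5 it lay between 8.38% and 8.57%, with an SD of up to 1.88 points. Stem cells ended at 7.30% ± 1.08 (n = 3) at E17.5 and 6.80% ± 0.75 (n = 3) at E18.5, and every library of E11.5 lay above every library of E18.5.

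Basal progenitors began at the other end, at 6.49% ± 0.29 (SD, n = 2) at E12.5, and reached their highest mean of 8.61% ± 2.13 (n = 3) at E16.5, where single libraries ran from 6.27% to 10.4%. They stood at 7.55% ± 0.37 (n = 3) at E18.5. Newborn neurons held 6.08% ± 0.10 (n = 3) at E15.5, the lowest of the 19 group means, then 7.19% ± 1.23, 7.13% ± 1.27 and 6.91% ± 0.08. Ordered by their means, each group overlapped its neighbour in single libraries, with 2 exceptions. Stem cells of E15.5 (7.77% to 9.58%) lay above basal progenitors of E15.5 (7.55% to 7.64%), and basal progenitors of E12.5 above newborn neurons of E15.5. The spread within groups was thus as large as most steps between them, and the ends of the order stood apart.

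**Figure D1:**
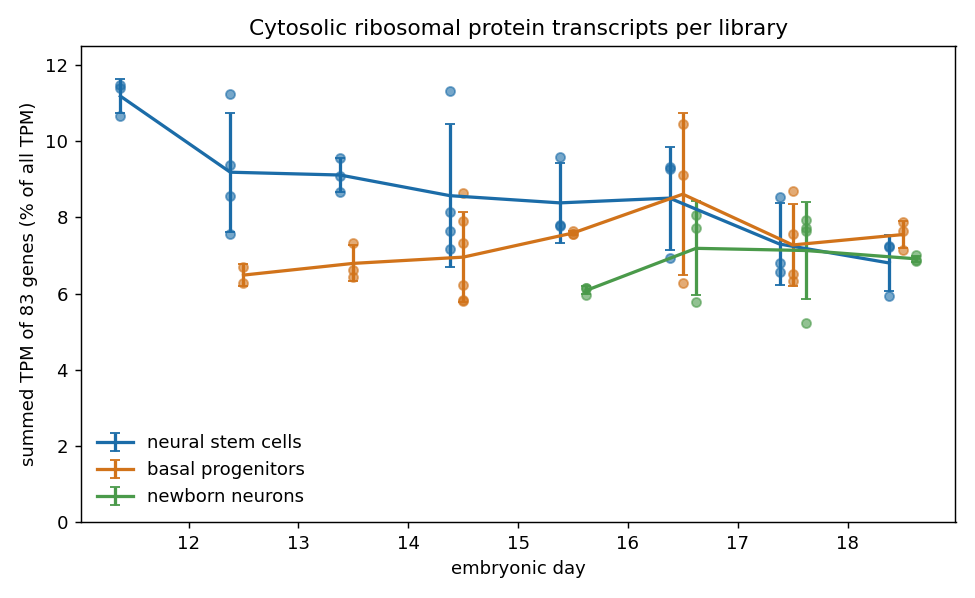
Summed TPM of the 83 ribosomal protein genes as a percentage of all TPM (y axis) against embryonic day (x axis). Points are libraries, lines join group means and bars are SD; stem cells run from 11.2% at E11.5 to 6.80% at E18.5, and basal progenitors from 6.49% at E12.5 to 7.55% at E18.5.

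The decline with age in neural stem cells was shared by nearly all members. A straight line was fitted through the 8 stem cell group means of log2(TPM + 1), and its change over the 7 days was tested for every gene. Of the 83 members, 77 fell at an adjusted p under 0.05 and none rose, where 27.7% of all 15231 genes tested fell and 37.1% rose. The median change of the members was -0.60 (log2), against 0.09 over all genes tested. It included 33 of the 34 small subunit genes (median -0.63) and 44 of the 49 large subunit genes (median -0.59). Only 3 members fell 2-fold or more (Rps2, Rpl22l1 and Rpl41), where 8.17% of all genes did, and none rose 2-fold, where 14.8% did.

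The largest fall was that of Rps2, a small subunit protein at the mRNA entry site. Its libraries read 2356, 2162 and 1770.5 TPM at E11.5 and 745, 860 and 866 TPM at E18.5. The 3 latest libraries thus lay below 0.5 of the lowest early one, and the fitted change was -1.14 ± 0.15 (log2, SE; adjusted p = 2.06e-09). Rpl41, the smallest protein of the large subunit, read 3174, 3134 and 2780.2 TPM at E11.5 and 1149.9, 1264 and 1304.5 TPM at E18.5, a change of -1.03 ± 0.15 (adjusted p = 8.85e-08). Rpl22l1, the paralog of Rpl22, read 590.3, 477 and 432 TPM at E11.5 and 181, 257 and 264 TPM at E18.5, with a change of -1.10 ± 0.27 (adjusted p = 0.000461). In all of these genes the early and late libraries did not overlap. Rpl41 went from a mean of 3029 TPM to libraries of 1516, 1682, 1719.5 and 3030.5 TPM at E12.5, the last of them still at the earlier level.

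Rpl12, which with Rplp0 forms the base of the stalk that recruits translation factors, fell by 0.91 on the log2 scale, from 404 to 193 TPM (adjusted p = 4.94e-07). The stalk's other members also fell. Rplp1 changed by -0.59 ± 0.16 (adjusted p = 0.00117), Rplp2 by -0.37 ± 0.14 (adjusted p = 0.0158), and Rplp0 by -0.30 ± 0.13 (adjusted p = 0.0459), from 2686, 2669 and 2618 TPM at E11.5 to 1683, 2187 and 2162 TPM at E18.5. Rpl5 and Rpl11, which bind the 5S ribosomal RNA and the p53 regulator MDM2, fell from 1566 to 1070.3 TPM and from 873 to 371 TPM (changes of -0.59 and -0.88). Rps6, the substrate of the S6 kinases, fell by 0.71 and Rps27a, made as a fusion with ubiquitin, by 0.68. Rps19 and Rps14, whose loss underlies human bone marrow failure, changed by -0.65 and -0.48 (adjusted p = 0.00293 and 0.0371).

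The changes of Rpl27a (-0.28 ± 0.12) and Rpl37 (-0.30 ± 0.13) were, with Rplp0, the smallest that passed the test. Among the 6 members that missed it were Rpl38 (-0.22 ± 0.15, adjusted p = 0.185), known for its part in the translation of Hox mRNAs, Rpl36 (-0.22 ± 0.15) and Rpl13 (-0.16 ± 0.15). The estimates for Rps3a3 (0.06 ± 0.22) and Rpl24 (0.24 ± 0.22) were the only positive ones, and both rows share sequence with, or stand beside, a more abundant copy. The upper-case RPL24 row had group means of 1176 TPM at E11.5 and 783 TPM at E18.5 in stem cells. Of the 83 members, 79 had every E18.5 stem cell library below every E11.5 library and 1 had it above, where 24.0% and 40.4% of all genes tested did.

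**Figure D2:**
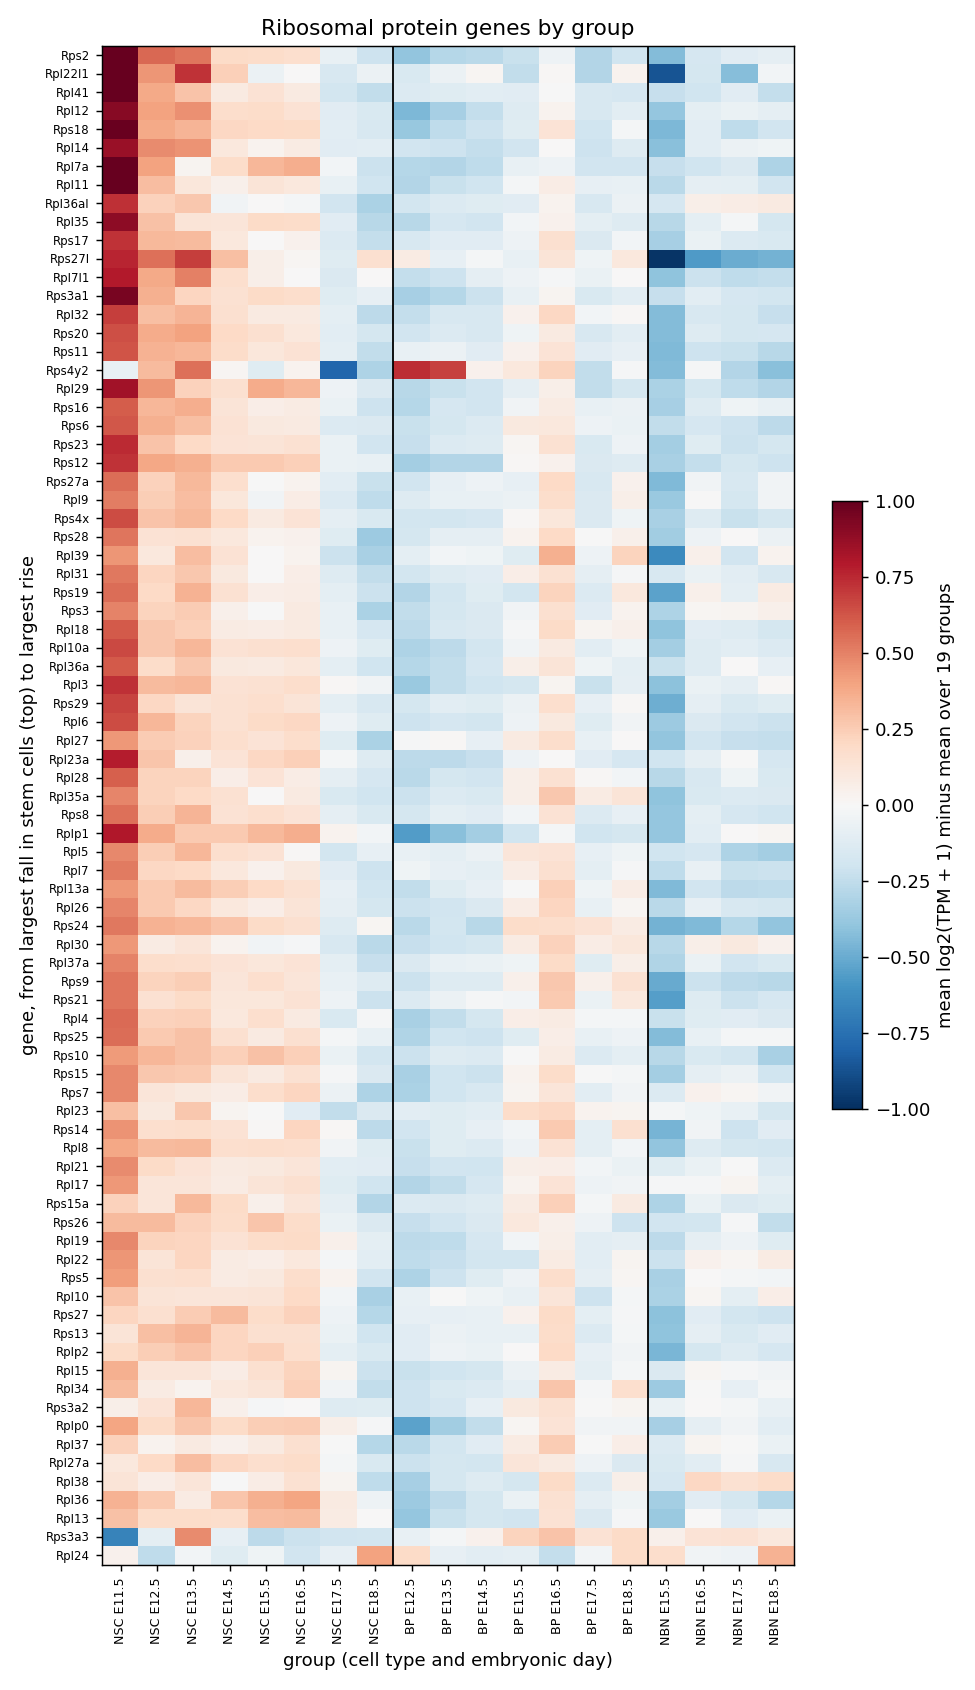
Mean log2(TPM + 1) of 82 of the 83 genes (rows, ordered by the fitted change in stem cells) in the 19 groups (columns), minus the gene's mean over the groups; red is above and blue below that mean, cut at 1 on the log2 scale. The first column, stem cells of E11.5, held the highest group mean of 68 of all 83 members (81.9%), beside 22.3% of all genes tested. The column of newborn neurons of E15.5 held the lowest of 47 (56.6%), beside 11.6% of all genes tested.

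The decline did not rest on the first or last day. With E11.5 left out, chosen as a check after the data were seen, 63 members fell (median -0.42), where 22.2% of all genes tested fell and 33% rose. With E18.5 left out 62 fell, beside 33.7% of all genes falling and 34% rising. Leaving out single libraries gave 69 to 78. With quantile scaling 50 members fell, with a median of -0.29 beside -0.07 over all genes, of which 35.9% fell.

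Other library measures also differed between the stem cell days. Neuron markers differed between days as given above: E13.5 and E18.5 had near-equal neuron marker sums of 2713 and 2788 TPM, with member shares of 9.11% and 6.80%. The same days differed in stem cell markers, which summed to 2505 and 5478 TPM. The 13 mitochondrially encoded genes took 5.58% ± 0.53 of TPM at E11.5 and 5.57% ± 0.70 at E17.5, with member shares of 11.2% and 7.30%, and 8.09% ± 1.63 at E18.5. One E17.5 library held 9487 TPM of erythroid and 209 TPM of microglial markers, and 1 E12.5 library 3554 TPM of erythroid markers, and the counts without single libraries above include both. The 5 interneuron markers summed to 75.8 to 352 TPM in stem cell groups and at most 14.3 TPM in basal progenitors. The part of neuronal, interneuron and erythroid cells in the decline was not tested. That of the mitochondrially encoded share was not tested beyond the covariate fit.

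In basal progenitors the members did not decline together. Over the 6 days from E12.5 to E18.5, 10 members rose (12%) and 1 fell, where 27.5% of all genes tested rose and 15.1% fell, so the count of risers was below the background share. The median change was 0.23 against 0.09 over all genes. Rplp0 rose by 0.54 ± 0.15 (log2, SE, limma adjusted p = 0.00286). Its libraries read 1427 and 1361 TPM at E12.5 and 2026, 2043 and 1856 TPM at E18.5, without overlap. Such a gap was common between these days: 58 of 83 members had every E18.5 library above every E12.5 library, and 1 had it below. Of all genes tested 42.8% and 27.1% did. Rps24 (0.46 ± 0.14) and Rpl30 (0.42 ± 0.17) also rose. Rps4y2, an Rps4x-related row, fell by 0.84 on the log2 scale (adjusted p = 0.00942), from 55.3 and 56.8 TPM to 34.4, 43.4 and 24.0 TPM.

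These counts were fragile. Without single basal progenitor libraries, 3 to 22 members rose: 22 without E16.5 replicate 1, and 3 to 6 without E12.5 replicate 1 or 2, E13.5 replicate 1 or 2, E16.5 replicate 2, E17.5 replicate 2, or E18.5 replicate 1 or 2. With median-of-ratios scaling none rose, where 21.1% of all genes did, and with quantile scaling 23 did, where 21.2% of all genes did.

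The difference between the courses was tested over their shared days, E12.5 to E18.5. The change in stem cells was lower than that in basal progenitors for 64 of the 83 members (77.1%) and higher for none, where 15.6% of all genes tested were lower and 14.2% higher. The median difference was -0.64 against 0.00286 over all genes. Rpl12 (-0.96 ± 0.22), Rps2 (-0.94 ± 0.22), Rps24 (-0.90 ± 0.19, adjusted p = 0.000224) and Rps18 (-0.87 ± 0.27) differed most. Rpl23a (-0.45), Rpl15 (-0.45), Rpl7 (-0.47) and Rpl19 (-0.49) differed least among those called. For Rpl24 (0.38 ± 0.33), Rps4y2 (-0.14 ± 0.36) and Rpl10 (-0.32 ± 0.24) the interval of 2 SE included no difference. When each library's rank correlation between TPM and transcript length entered as a covariate, 17 members (20.5%) were lower, beside 23.6% of all genes, and without basal progenitor E12.5 replicate 2 the count was 39. It was 42 with quantile or median-of-ratios scaling (16.7% and 14.2% of all genes) and 34 with the mitochondrially encoded share as a covariate (14.6% of all genes).

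**Figure D3:**
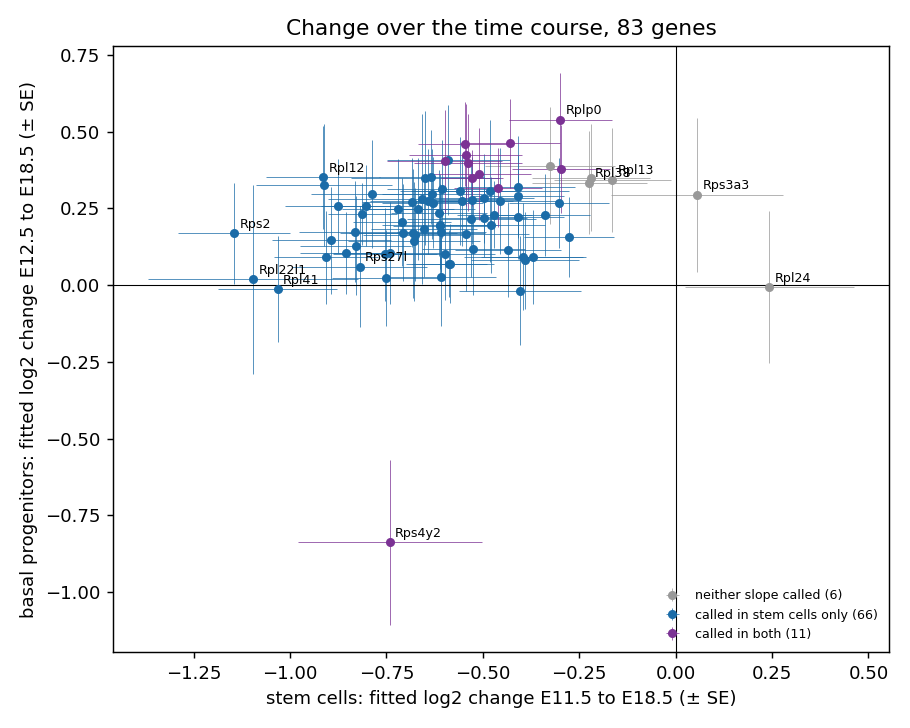
Fitted log2 change in neural stem cells over E11.5 to E18.5 (x axis) against that in basal progenitors over E12.5 to E18.5 (y axis) for 83 genes, with bars of 1 SE and colours for the calls at an adjusted p under 0.05. Most points lie left of 0 and above 0; 66 genes were called in stem cells alone, 11 in both and 6 in neither.

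In newborn neurons no member passed the test over the 3 days from E15.5 to E18.5, where 10.9% of all genes tested rose and 5.08% fell. At an unadjusted limma p under 0.05 there were 5 of the 83 members, where 4134 of all 15231 genes tested were. The median change of the members was 0.15. The largest estimates were those of Rpl22l1 (0.68 ± 0.34) and Rpl39 (0.53 ± 0.31), with standard errors too wide for a call. Without newborn neuron E17.5 replicate 1, 5 members rose. From E17.5 to E18.5 no member passed the limma test in any of the 3 cell types, and 0 did at an unadjusted p under 0.05. Of all 15231 genes tested, 6302 in stem cells, 715 in basal progenitors and 638 in newborn neurons had such an unadjusted p. The members' medians were -0.09 in stem cells, 0.07 in basal progenitors and -0.03 in newborn neurons. In stem cells 21.7% of all genes tested rose and 8.69% fell over that day, whereas in basal progenitors and newborn neurons 0.0131% rose and 0.00657% fell.

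Averaged over the 7 shared days, 41 of 83 members (49.4%) were higher in neural stem cells than in basal progenitors and none lower, where 27.2% of all genes tested were higher and 20.8% lower. The differences were small, with a median of 0.16 (log2), and no member reached 2-fold, where 2.56% of all genes were 2-fold higher and 0.466% 2-fold lower. Rplp1, an acidic stalk protein, differed most: its means over those days were 1380.3 and 965 TPM (0.50 ± 0.08, adjusted p = 5.81e-07), and it was higher in stem cells on 7 of 7 days. On the earliest shared day its stem cell libraries read 1165, 1319, 1314 and 2416 TPM and its basal progenitor libraries 754 and 809 TPM, whereas at E16.5 they read 952, 1814 and 1865 against 853, 1414 and 1203 TPM. The groups were apart at E12.5 and overlapped at E16.5. Rps2 (0.44), Rps12 (0.36) and Rpl29 (0.35) followed. The difference between the cell types was not even over the days. At E12.5 the members' mean log2(TPM + 1) was 9.78 in stem cells and 9.32 in basal progenitors. It was 9.67 in both at E16.5, and 9.37 in stem cells and 9.52 in basal progenitors at E18.5. With E18.5 left out 55 members were higher, where 25.3% of all genes were. The count over all 7 days was 27 with median-of-ratios scaling, where 25.4% of all genes were higher. With the mitochondrially encoded share as a covariate 23 members were higher and 4 lower, where 28.4% and 20% of all genes were, so in that fit the members' share of higher calls was near the background.

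Newborn neurons had lower levels than basal progenitors for 28 members (33.7%) and higher levels for none, averaged over the 4 days from E15.5. Of all genes tested 33.3% were lower and 25.3% higher, so the share of lower members was near the background in this fit. That depended on how libraries were matched: with the replicate number as a block within each day, added after the data were seen, 61 members were lower and none higher, beside 39.8% and 30.2% of all genes. Same-numbered libraries of these cell types had a correlation over 0.1 in 12 of 13 pairs, but the labels do not say what the numbers share. Compared with neural stem cells on the same days, 37 members (44.6%) were lower and none higher, beside 32.8% and 21.8% of all genes tested. Both comparisons use the same newborn neuron libraries.

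Rps27l, a p53-responsive paralog of Rps27, was the lowest in both comparisons, at -0.66 ± 0.11 against basal progenitors (adjusted p = 1.88e-06) and -0.66 ± 0.11 against stem cells (adjusted p = 3.13e-06). At E18.5 its libraries read 106, 102 and 97.3 TPM in newborn neurons, 158, 153 and 146 TPM in basal progenitors and 112, 186 and 189.6 TPM in stem cells. Newborn neurons lay below both other types there without overlap. Rps24, which has alternatively spliced 3′ exons, followed at -0.54 ± 0.08 and -0.46 ± 0.08. Its libraries read 1316, 1321 and 1306 TPM in newborn neurons of E18.5 and 1882, 1834 and 1751 TPM in basal progenitors. Rps9 (-0.45) came next against basal progenitors, and Rpl36 (-0.42) and Rpl29 (-0.39) against stem cells.

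The counts moved with single libraries. Against basal progenitors, 45 were lower without basal progenitor E16.5 replicate 1, and 17 without basal progenitor E16.5 replicate 2 or newborn neuron E16.5 replicate 1. Against stem cells, 22 to 24 were lower without newborn neuron E16.5 or E17.5 replicate 1, or without stem cell E15.5 replicate 1, E16.5 replicate 2 or 3, or E17.5 replicate 1. With the length covariate the median against basal progenitors turned to 0.03, with 15 members higher and 9 lower. Against stem cells 13 were higher and 15 lower. Of all genes 27% and 23.6% were higher in these comparisons, and 41.6% and 42.2% were lower. Median-of-ratios scaling left 8 and 7 members lower, where 27.9% and 26% of all genes were. In these fits the members' share of lower calls was below the background in both comparisons.

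Ratios between paralogs within a library do not depend on how libraries are scaled. The log2 ratio of Rps27l to Rps27 was lower in newborn neurons than in basal progenitors by 0.40 (-2.47 against -2.08; adjusted permutation p = 0.00012 over 12 tests) and lower on 4 of 4 days. The unadjusted permutation p of 1e-05 is the smallest that 100000 resamples can give. Its difference from stem cells was -0.41 (adjusted permutation p = 0.00027). In newborn neurons Rps27l stood at 16.1% to 19.8% of Rps27, and in stem cells it went from 34.9% at E11.5 to 20.6% at E16.5 and 32.9% at E18.5. Some 27.4% of the windows of Rps27 also occur in the row Gm9846. That row was the more abundant, with a mean of 1043 TPM over the 19 group means against 610 TPM for Rps27. How reads were split between them is not known, so the level of Rps27, these percentages and both differences are less certain.

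The ratio of Rpl36al, an intronless relative, to Rpl36a was higher in newborn neurons than in basal progenitors by 0.21 (adjusted permutation p = 0.000336) and than in stem cells by 0.23 (adjusted permutation p = 0.00027), in each case on 4 of 4 days. Rpl7l1, thought to act in ribosome biogenesis rather than in the ribosome, was higher relative to Rpl7 in stem cells than in basal progenitors by 0.17 (adjusted permutation p = 0.00027), on 6 of 7 days. In newborn neurons that ratio differed from stem cells by -0.11 (-4.69 against -4.58; adjusted permutation p = 0.0211, and 0.246 without E18.5).

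Rpl22l1 stood at 65.6% of Rpl22 in stem cells of E11.5, 39.2% at E17.5 and 44.8% at E18.5. The newborn neuron ratio was lower than that of stem cells by 0.28 (adjusted permutation p = 0.0462), but this missed the threshold in 15 of the 25 cases where 1 library was left out, with adjusted p up to 0.147, and without E18.5. The 4 lowest ratios were those of newborn neuron E15.5 replicate 2 and E17.5 replicate 1 and basal progenitor E15.5 replicate 2 and E17.5 replicate 1. From basal progenitors the newborn neuron ratio differed by -0.28, on 4 of 4 days, as large as from stem cells but with an adjusted permutation p of 0.131. That permutation ignored replicate numbers, although low ratios fell in same-numbered libraries of both types. E15.5 replicate 2 read -2.54 in newborn neurons and -1.82 in basal progenitors, and E17.5 replicate 1 read -2.68 and -2.34. A difference within same-numbered libraries was not tested, so this p does not speak to it. The other 4 of the 12 tests also missed the threshold. Stem cells minus basal progenitors gave 0.07 for Rpl22l1, 0.09 for Rps27l and -0.06 for Rpl36al, and newborn neurons minus basal progenitors -0.03 for Rpl7l1.

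**Figure D4:**
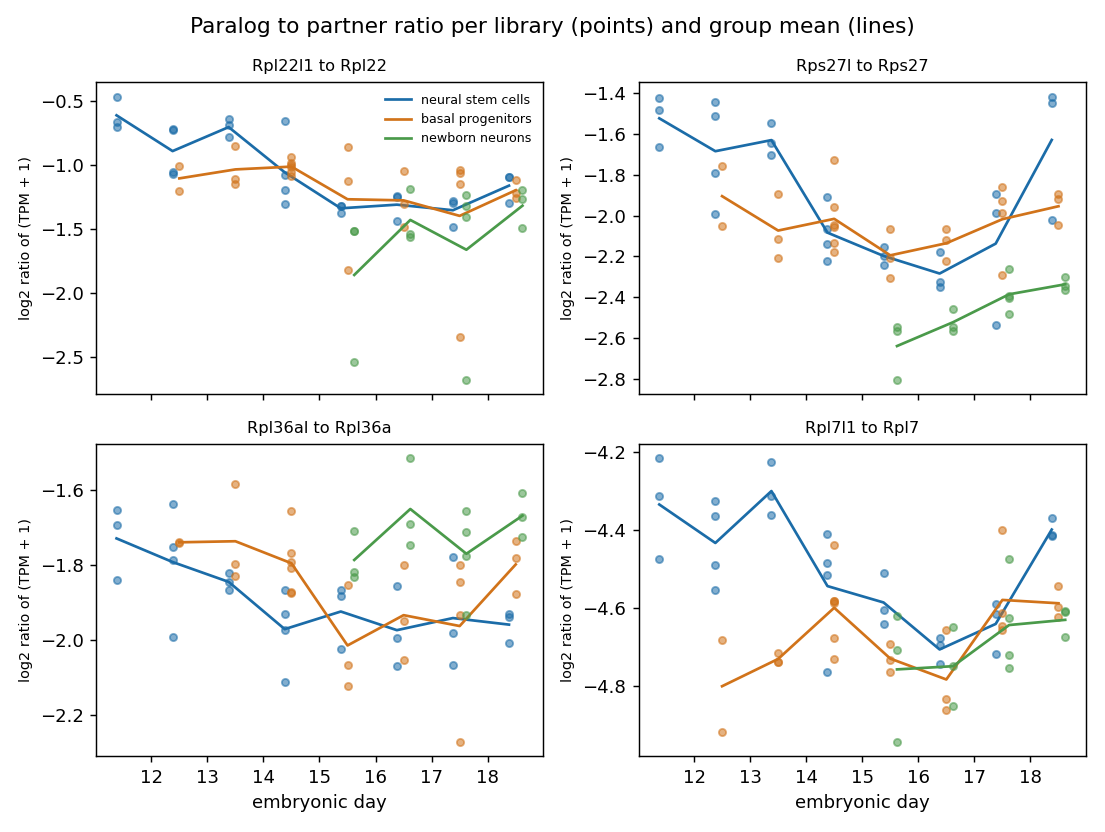
Log2 ratio of (TPM + 1) of each paralog to its partner (y axis) by embryonic day (x axis) in the 3 cell types; points are libraries and lines join group means. The Rps27l panel shows newborn neurons at group means of -2.64 to -2.34, below those of basal progenitors, and the Rpl36al panel shows them at -1.79 to -1.65, above both other types from E15.5.

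Genes of the translation machinery beyond the members were followed through fixed lists. In stem cells all 4 ribosomal protein genes outside the symbol pattern fell, led by Rpsa (-0.98) and Gnb2l1 (-0.52). Of 54 ribosome biogenesis genes 46 fell (85.2%, beside 27.7% of all genes tested) and 2 rose (median -0.68). Dkc1 (-1.47), of the pseudouridylation complex, and Gnl3 (-1.43), nucleostemin, fell most, and Imp3 (0.37) and Gnl3l (0.23) rose. Of 8 other genes with TOP mRNAs 7 fell, led by Npm1 (-1.69) and Nap1l1 (-1.37).

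Elongation factors fell in 7 of 9 cases and rose in 2, with Eif5a (-0.84) and Eef1d (-0.80) lowest, and Eef1a2 (2.39), the isoform of mature neurons, and Eef2 (0.26) higher. Of 28 initiation factors 19 fell and 2 rose, the latter being Eif4a2 (0.87) and Eif3f (0.29). Growth regulators were mixed, with 9 of 18 rising and 5 falling. Eif4ebp1, an mTORC1-controlled repressor of initiation, fell by 1.76, and Akt1s1 (1.30) and Mycl (1.08) rose most.

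The organelle counterparts moved less. Of 76 mitochondrial ribosomal proteins 40 fell (52.6%) and 12 rose in stem cells (median -0.24), with Mrpl39 (-0.91) and Mrpl52 (0.85) at the ends. Of 80 nuclear oxidative phosphorylation subunits tested, 15 fell (18.8%, below the 27.7% of all genes) and 13 rose (median -0.03). Their median transcript had 607.5 bases and that of the members 639.5 bases, where all genes tested had 1456 bases. What part transcript length had in the courses of these lists was not tested. In the test of stem cell against basal progenitor change, 31 of 54 ribosome biogenesis genes (57.4%), 30 of 76 mitochondrial ribosomal proteins (39.5%) and 4 of 80 oxidative phosphorylation subunits (5%) were lower, beside 15.6% of all genes tested, and none of these lists had a gene that was higher.

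Members varied together. Over the 19 group means the median correlation between 2 members was 0.83, and within groups, over 63 libraries, it was 0.81. These points share libraries and the fixed sum of TPM, so the values describe and do not test. Rps4x and Rpl10a followed the mean of the other members most closely over the groups (r = 0.99 for both), and Rpl24 (r = -0.44) and Rps3a3 (r = -0.34) least. Outside the members, Gm5148 (r = 0.98), Eif3i (r = 0.97), a subunit of initiation factor 3, and Gm9846 (r = 0.97) had the group means most like theirs. Gm5148 and Gm9846 share sequence with members: 32.1% of the windows of Rps23 also occur in Gm5148, and 27.4% of those of Rps27 in Gm9846. The likeness of these rows is therefore not independent of the members, and the part of shared reads in it was not tested. Within groups the member mean ran against the mitochondrially encoded share (r = -0.83) and against the rank correlation of TPM with transcript length (r = -0.92). Libraries rich in ribosomal protein transcripts thus held relatively more of other short transcripts and less of mitochondrially encoded ones, and the part of this library property in the differences between groups was not tested beyond the covariate fits.

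**Figure D5:**
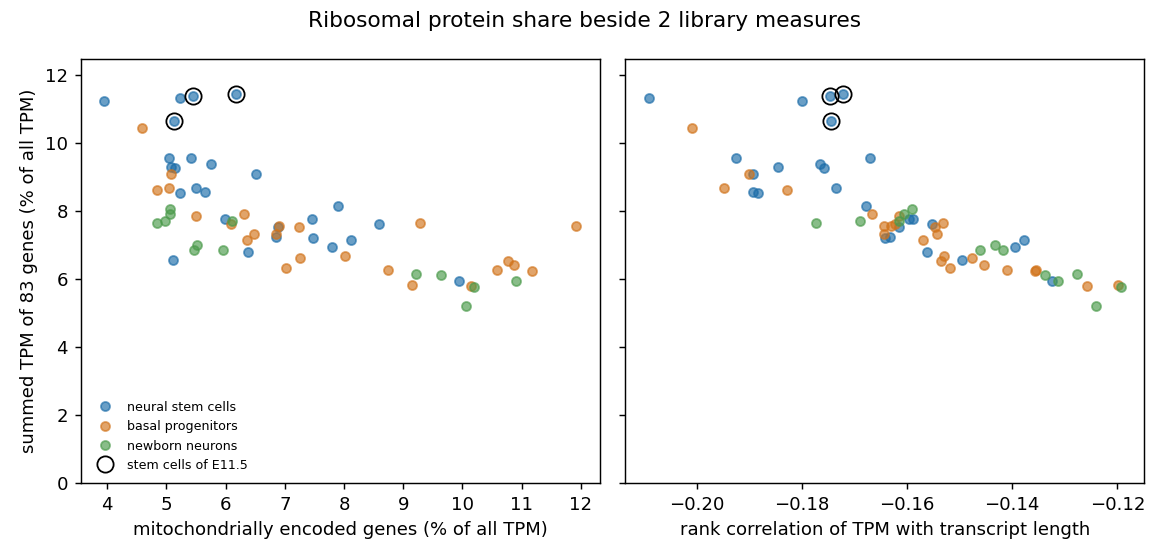
Summed TPM of the 83 genes as a percentage of all TPM (y axes) against the mitochondrially encoded share of TPM (left) and the rank correlation of TPM with transcript length over genes that are not members (right), 1 point per library. The 3 circled stem cell libraries of E11.5 sit at 10.7% to 11.5% while their mitochondrially encoded shares, 5.13% to 6.17%, lie within the range of the other libraries.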

How the data were processed

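TruSeq RNA v2 libraries were sequenced as single reads of 50 bases, per the labels' protocols. The authors deposited one table of gene-level TPM values, for which the submitters' processing notes list kallisto 0.43.0 and the builds GRCm38.p2 and mm10. Strand setting and annotation release are not given in the sources used here. TPM sums to 1000000 per library, so a rise in some genes lowers others, and depth is unknown.

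From these values, genes with 1 TPM or more in 3 or more libraries (15231 of 23078) were fitted as log2(TPM + 1) with limma 3.58.1 in R 4.3.3 (trended variance), with 19 group means and Benjamini-Hochberg adjustment over all genes tested. The pseudocount understates changes of low genes. Calls are at an adjusted p under 0.05, and all 10 comparisons were fitted together. Paralog ratios were compared by a two-sided permutation test within days (100000 resamples, 12 tests). Slopes are least-squares lines through group means, times the span in days. Start windows came from RefSeq promoters and transcript lengths and shared windows from the GENCODE annotation. The fit was tested on simulated data.

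The members and lists were chosen with earlier results of these data known. Named genes are, per comparison, the 4 highest and 4 lowest called members, the 5 most and least abundant, a fixed set of paralogs and well-studied members, and the 2 highest and lowest called of each other list; Rpl36, Rpl13 and Rps3a3 and other uncalled members were named after their values were seen. A few named genes' own values are not reported here; counts and medians include them. Same-numbered replicates did not deviate together throughout, so the calls use no pairing; fits with the replicate number as a block are given where they change a count.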

Additional observations from a re-analysis of the deposited data

Results flagged for a closer look

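Within groups of 4 or more libraries, 95 combinations of 19 quantities and 5 groups were examined for a library apart from the others. Of these, 12 were marked, where chance marks about 1 in 20 single combinations. The quantities vary together, so marks of 1 library repeat each other and no excess over chance can be read from the count. Newborn neuron E17.5 replicate 1 accounted for most marks. It held a summed member share of 5.23%, Rpl12 at 143.8 TPM, Rps27l at 58.24 TPM, Rpl22l1 at 65.27 TPM, Rps6 at 1111 TPM, Rpl13 at 614.8 TPM and a log2 ratio of Rpl22l1 to Rpl22 of -2.678, each below the other 3 libraries of its group. Basal progenitor E17.5 replicate 1 stood apart in the same ratio, at -2.342. Stem cell E12.5 replicate 4 was above its group for Rpl41 (3030 TPM) and Rplp1 (2416 TPM), and stem cell E14.5 replicate 2 for Rpl38 (1340 TPM) and Rps4y2 (47 TPM).

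In the test of the difference in change with age, 64 members had a lower slope in stem cells than in basal progenitors, beside 15.6% of all genes tested. With the length covariate 17 were lower, beside 23.6% of all genes, so the count was then near the background.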

How the results depend on the processing

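Pseudocounts of 0.1 and 5, a mean of 5 TPM, rescaling without the members and fits on the contrast's libraries alone changed no direction and no count by over 1.5 times. With TPM scaled without mitochondrially encoded genes, 1 member was lower in stem cells than in basal progenitors, where 23.3% of all genes were. There was 1 higher in newborn neurons than in stem cells, where 22.6% of all genes were. In each setting below, the cause of the change was not tested. Covariate fits on the mitochondrial share, that rescaling, the fit without E11.5 and the block within days were chosen after the data were seen.

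Quantile scaling moved the median of all genes in the stem cell slope from 0.09 to -0.07 and its calls from 37.1% higher and 27.7% lower to 30.5% and 35.9%. Those of the basal progenitor slope went from 27.5% and 15.1% to 21.2% and 20.6%, and with median-of-ratios scaling to 21.1% and 20.2%.

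Percentages in brackets, here and below, are the shares of all genes tested with the same call. Stem cells against basal progenitors: 1 member was lower with quantile scaling (29.9%) and 27 were higher with median-of-ratios scaling (25.4%). With the length covariate 7 were lower (21.2%), and with the mitochondrial covariate 23 were higher (28.4%) and 4 lower (20%). Newborn neurons against basal progenitors: 45 were lower with quantile scaling (31.3%), 8 with median-of-ratios scaling (27.9%) and 54 with the mitochondrial covariate (35.9%). With the length covariate 15 were higher (27%) and 9 lower (41.6%), with a member median of 0.035. Newborn neurons against stem cells: 2 were higher with quantile scaling (29.6%), and 2 higher (27.5%) and 7 lower (26%) with median-of-ratios scaling. There were 13 higher (23.6%) and 15 lower (42.2%) with the length covariate and 4 higher (23.3%) with the mitochondrial one.

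In stem cells over time 50 fell with quantile scaling (35.9%), with a member median of -0.29, and that median was -0.38 with the length covariate. In basal progenitors 5 rose with no filter (18.3%), 23 with quantile scaling (21.2%) and 0 with median-of-ratios scaling (21.1%). With the length covariate 6 rose (34.2%) and 3 fell (15.8%), with a member median of 0.0276. By the last day minus the first 1 rose (20.1%) and 0 fell (9.13%). With the mitochondrial covariate 4 rose (29.1%) and 2 fell (15.6%). In newborn neurons 3 rose with quantile scaling, 2 rose and 1 fell with the length covariate, and 1 rose and 6 fell with the mitochondrial covariate (median -0.19). For stem cell minus basal progenitor slopes, 42 were lower with quantile scaling (16.7%, member median -0.40) and 42 with median-of-ratios scaling (14.2%). There were 17 with the length covariate (23.6%, member median -0.20) and 34 with the mitochondrial covariate (14.6%, member median -0.35).

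From E17.5 to E18.5 in stem cells, 2 rose with quantile scaling (15.9%, member median 0.0226) and 3 with the length covariate (27.1%, member median 0.022). With the mitochondrial covariate 5 rose (21.5%, member median 0.14). The median was -0.0589 in basal progenitors with the mitochondrial covariate and 0.0931 in newborn neurons with the length covariate.

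Single genes reversed with the length covariate: Rpl24 to 0.15 (stem cells against basal progenitors), -0.18 and -0.19 (newborn neurons against basal progenitors and stem cells) and 0.35 (basal progenitor slope), Rpl10 to 0.17 and Rpl3 to 0.15 (newborn neurons against basal progenitors) and Rpl22 to 0.12 (newborn neurons against stem cells). With quantile scaling Rpl10 reversed to 0.0211 in the stem cell slope. Without E18.5 the newborn neuron to stem cell difference was -0.32 for Rpl22l1 to Rpl22 (adjusted permutation p = 0.144) and -0.0724 for Rpl7l1 to Rpl7 (0.246).

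Leaving out 1 library at a time gave these ranges, and the shares over all genes were not taken in those fits. Stem cells against basal progenitors, 0 to 1 lower; newborn neurons against basal progenitors, 17 to 45 lower; newborn neurons against stem cells, 0 to 2 higher and 22 to 43 lower; basal progenitor slope, 3 to 22 higher; newborn neuron slope, 0 to 5 higher; slope difference, 39 to 72 lower. From E17.5 to E18.5, stem cells had 0 to 1 higher with medians of -0.15 to 0.019, and newborn neurons medians of -0.17 to 0.0343. The 2 stem cell reversals came without E17.5 replicate 1 (0.019) and E18.5 replicate 1 (0.00227), and the newborn neuron ones without E17.5 replicate 2 (0.0216), 3 (0.0343) or 4 (0.0266). Paralog differences ran from -0.32 to -0.19 for Rpl22l1 (newborn neurons minus stem cells), from -0.36 to -0.20 for Rpl22l1 (minus basal progenitors, past the threshold only without basal progenitor E17.5 replicate 1) and from -0.0756 to -0.0493 for Rpl36al (stem cells minus basal progenitors, likewise).

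Replicate numbers did not pair libraries by the rule used: same-numbered libraries had r over 0.1 in 12 of 13 pairs of basal progenitors and newborn neurons, 7 of 21 of stem cells and basal progenitors and 6 of 12 of stem cells and newborn neurons. A replicate block gave 77 members falling in stem cells (27.8%) and 54 lower in the slope difference (14.4%). It gave 1 higher in newborn neurons than in stem cells (21.8%). A replicate block within each day gave 61 lower in newborn neurons than in basal progenitors (39.8%). In those cell types 11 of 13 pairs correlated best with their own number.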
